A study of Mus musculus with 18 samples.

Results

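The genes of vascular endothelial growth factor (VEGF) and angiopoietin signalling were followed through bladder injury in 10 members: the ligands Vegfa, Vegfc, Angpt1 and Angpt2, the receptors Kdr, Flt1, Flt4, Tie1 and Tek, and the co-receptor Eng. They were picked by gene name from a table of 60750 features, of which 46333 carry a name, and each name matched 1 row. The 18 RNA-seq libraries came from whole urinary bladders, each of 1 wild-type BALB/c female at an age of 8 weeks, with 3 mice in each of 6 groups. The 3 normal-diet groups were killed 1 day after intraperitoneal saline, 1 day after cyclophosphamide (CP, 150 mg/kg) and 3 days after CP. The other 3 groups had the same injections and days on a vitamin A-enriched diet, begun a week before the injection. CP is an alkylating drug whose urinary metabolites injure the urothelium, the bladder lining. The sample labels give the diet as 566081 units of retinyl acetate per kg, whereas the series description names retinyl palmitate. Saline bladders were all taken at 1 day, so a 3-day group set against saline was also collected on another day, and which mice shared a cage is not known here.

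VEGF ligands are secreted proteins that bind receptor tyrosine kinases on the endothelium that lines blood and lymph vessels. Vegfa acts through Kdr (VEGFR2), the main signalling receptor of blood vessels, and through Flt1 (VEGFR1), which binds the ligand tightly and can act as a decoy. Vegfc acts mainly through Flt4 (VEGFR3) on lymphatic vessels. Angiopoietins bind the kinase Tek (Tie2): Angpt1 stabilises vessels, Angpt2 often opposes it, and the related receptor Tie1 modulates Tek. Eng (endoglin) is a co-receptor for BMP and TGF-beta ligands on endothelium and some other cells. Vegfa is a known target of the hypoxia-inducible factors.

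Eng, Tie1, Tek and Flt4 were the 4 members higher at 3 days than in saline on the normal diet, and Eng, Flt1 and Vegfa the 3 members higher at 1 day on the vitamin A diet. For the regulatory sequence next to these genes, the windows upstream of the RefSeq transcription starts (GRCm38.p6) were read for 8 of the 10 members, which have 9 entries; Angpt1 and Angpt2 have none in the table used. Windows ran over the 250 bases before the start. Of these, 212 bases of the Tie1 window and all 250 bases of the Flt4 window lie in the 5′ untranslated part of a first exon in the GENCODE vM21 annotation of the same assembly. Tie1 is therefore shown up to that exon, and Flt4 is not shown. The windows of Vegfa are not shown either. The Eng window is chr2:32646345-32646594 (plus strand) and that of Tie1 chr4:118490062-118490099 (minus). That of Tek is chr4:94739039-94739288 (plus) and that of Flt1 is chr5:147726012-147726261 (minus). Each is written 5′ to 3′ on the strand of its gene. Capitals mark AGGAAG or CGGAAG, longer strings that hold the GGAA core bound by ETS factors, or the reverse complement of either.
Eng: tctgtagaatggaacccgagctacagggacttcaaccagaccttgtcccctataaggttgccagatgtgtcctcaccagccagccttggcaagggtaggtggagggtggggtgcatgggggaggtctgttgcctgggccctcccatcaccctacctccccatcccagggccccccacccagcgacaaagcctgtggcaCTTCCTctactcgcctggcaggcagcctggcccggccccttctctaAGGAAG
Tie1: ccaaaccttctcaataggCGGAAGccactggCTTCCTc
Tek: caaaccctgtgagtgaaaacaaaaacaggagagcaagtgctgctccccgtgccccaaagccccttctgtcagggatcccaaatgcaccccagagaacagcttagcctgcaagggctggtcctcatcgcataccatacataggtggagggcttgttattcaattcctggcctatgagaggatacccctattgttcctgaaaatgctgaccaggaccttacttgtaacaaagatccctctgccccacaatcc
Flt1: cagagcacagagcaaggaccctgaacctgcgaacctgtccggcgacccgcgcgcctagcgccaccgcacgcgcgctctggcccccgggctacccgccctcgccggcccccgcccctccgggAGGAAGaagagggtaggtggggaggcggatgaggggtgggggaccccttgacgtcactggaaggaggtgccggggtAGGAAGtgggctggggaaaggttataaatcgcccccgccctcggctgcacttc
Eng, Tie1 and Flt1 each hold 2 such matches, and the windows of Tek, Flt4, Kdr, Vegfc and Vegfa hold 0. Other sites with GGAA or its reverse complement, such as those in the Tek window, are neither marked nor counted. A match of this pair is common, since 39.2% of 32851 RefSeq windows of the same length hold one. In all 9 strings were looked for on both strands, and the pair marked here was chosen after the matches of all 9 had been seen. AGGAAG lies in 3 members (29.5% of all windows), CGGAAG in 1 (13.6%) and CCGGAAG, which contains CGGAAG, in 0 (6.91%). ACGTG, the hypoxia response element core, lies in 1 member, Vegfa (16.6%), in its second entry, a window inside the gene of which 218 of 250 bases are annotated exon and 67 of them coding. GGGGCGGGG lies in 3 members (10.4%), namely Vegfa (in the same second entry), Kdr and Flt1. TTATCT lies in 1 (9.99%), Vegfa, in its first entry. GTAAACA (3.17%), TGACTCA (4.46%) and the exact DR5 direct repeat of AGGTCA, a retinoic acid receptor site (0.00913%), lie in 0 members. A match describes letters in a window and is no evidence of binding.

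Libraries held 19554132 to 34598952 counts in named and unnamed features, and all 10 members passed the filter on low counts, with 43 to 4208 counts per member and library. Levels below are counts scaled to the same total in every library (CPM), after TMM normalisation. Changes are log2 ratios of group means from edgeR's quasi-likelihood test. That test gives no standard error (SE), so the SE was derived as the absolute log2 change over the square root of its F statistic. P-values are Benjamini-Hochberg adjusted over 19323 genes, with a threshold of 0.05. Markers of the labelled tissue were abundant, with summed CPM of 4440.8 to 8139.9 for 6 urothelial and 7060 to 24925 for 6 smooth muscle genes. The library of replicate 2 of the 3-day vitamin A group stood apart in how much of its total fell on genes under 1 kb in length (14.2%, with 7.13% to 10.8% in the others) and in its mean correlation with its own group (0.963). Replicate 3 of the 1-day vitamin A group had the largest mitochondrial share (3.79%). RNA came from whole bladders, so fewer cells of a type and less RNA per cell cannot be told apart.

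Eng had risen 1 day after CP on both diets and was still higher at 3 days, whereas Tie1 overlapped its saline level at 1 day and rose between 1 and 3 days on both diets. Tek and Flt4 were higher at 3 days than in saline on the normal diet, Flt1 and Vegfa at 1 day on the vitamin A diet, and Vegfa then fell. Vegfc, Kdr, Angpt1 and Angpt2 passed no test. At 1 day against saline 1 of 10 members was higher past the threshold on the normal diet, where 7.26% of all genes were. On the vitamin A diet 3 of 10 were, with 10.2% of all genes. Between 1 and 3 days 2 members rose on the normal diet (1.22% of all genes did), and on the vitamin A diet 1 rose (2.55%) and 1 fell (1.69%). At 3 days against saline 4 members were higher on the normal diet (6.74%) and 2 on the vitamin A diet (4.32%). Counted without a test, 7 of 10 members had every 3-day mouse above every saline mouse on the normal diet, as 19.8% of all genes did, and 2 on the vitamin A diet (10.9%). For 3 days above 1 day these counts were 4 (11.9%) and 1 (7.81%), with 1 below on the vitamin A diet (7.85%). For 1 day above saline they were 1 (20.8%) and 3 (19.2%), with 1 below on the normal diet (18.6%). These comparisons share groups, since 1 day enters 2 of them and saline 2 of them on each diet.

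The counts between 1 and 3 days hung on single mice. On the normal diet the count of 2 became 0 without 1-day replicate 1 or 3-day replicate 1 or 2, and 1 without 1-day replicate 3. The vitamin A count became 0 without 1-day replicate 2 or 3, 1 without 3-day replicate 1 or 2, and 3 without 1-day replicate 1 or 3-day replicate 3. It was also 0 when the fit held only the libraries compared. At 3 days against saline on the normal diet, the 4 members became 2 (Eng and Tie1) without saline replicate 2 or 3 or 3-day replicate 1 or 2. Over all 10 members the median log2 change was 0.19 and 0.18 at 1 day (normal and vitamin A diet), 0.35 and 0.20 at 3 days against saline, and 0.30 and 0.08 from 1 to 3 days, beside medians over all tested genes of -0.01 to 0.01.

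**Figure D1:**
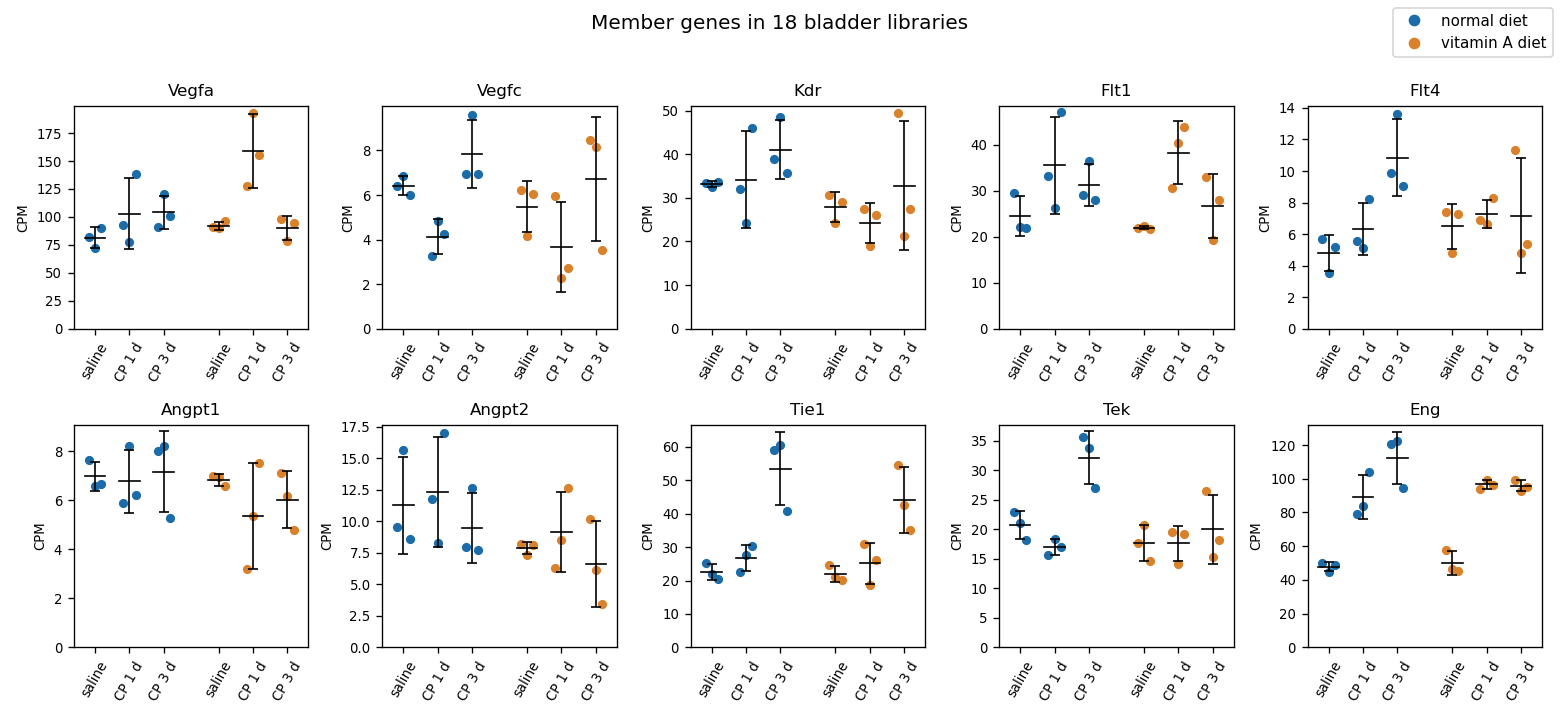
Level of each of the 10 genes in each library (points, CPM on a linear axis from 0) by group, with the group mean and SD over 3 mice (bars), blue for the normal and orange for the vitamin A diet. Eng stands at 44.7 to 58.0 CPM in all 6 saline libraries and at 79.3 to 122 in all 12 libraries after CP, while Tie1 is highest in the 3-day groups.

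**Figure D2:**
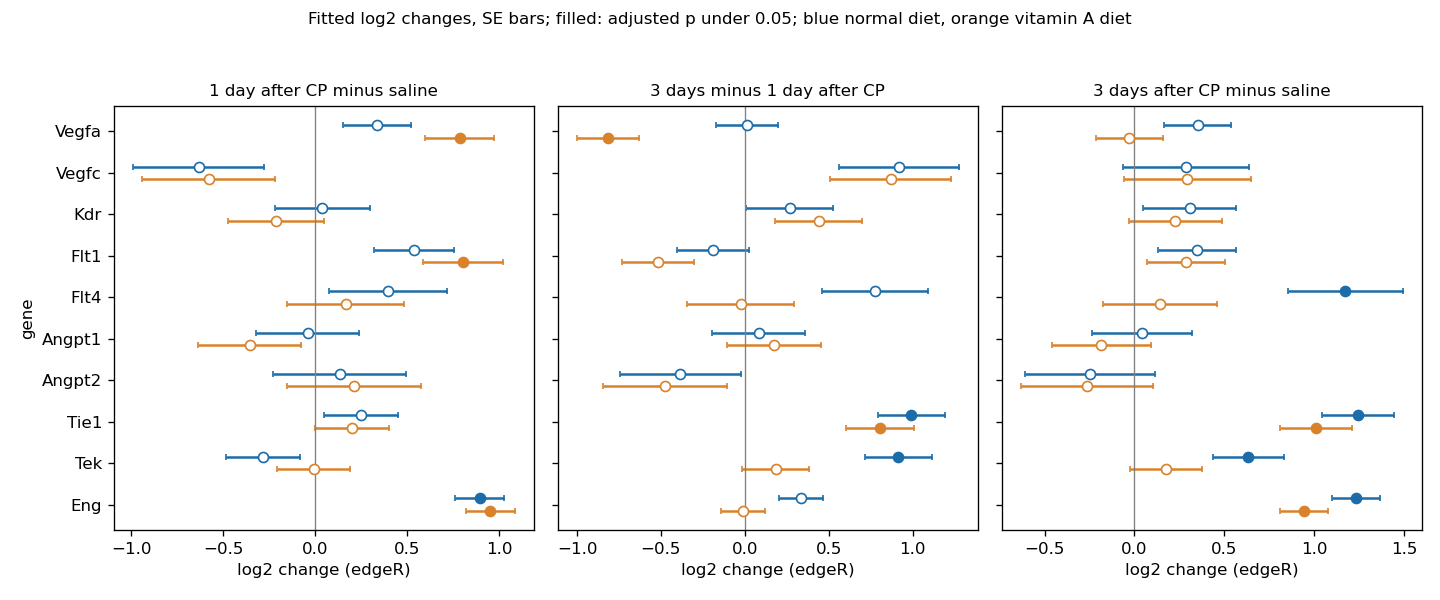
Fitted log2 change of each gene with its SE for 1 day after CP minus saline, 3 days minus 1 day, and 3 days minus saline, on the normal (blue) and vitamin A (orange) diet, with filled points for an adjusted p under 0.05. Eng is filled on both diets in the outer panels and Tie1 in the middle and right panels.

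Per length, the deposited FPKM values (counts scaled by library size and gene length) placed Vegfa highest of the 10 in saline bladders on the normal diet, at 19.4 ± 2.24 FPKM (SD, n = 3), and Eng second at 13.3 ± 0.83. Tie1 followed at 5.78 ± 0.62 FPKM. Kdr (4.20 ± 0.094) and Tek (4.19 ± 0.47) overlapped in FPKM, as did Vegfc (3.38 ± 0.20) with Angpt2 (3.13 ± 1.06). The lower end was made of Flt1 (1.75 ± 0.32) and Angpt1 (1.53 ± 0.13), which overlapped, and Flt4 at 0.82 ± 0.19 FPKM. All other neighbours in this order had ranges that did not overlap. The range of Angpt2 (2.39 to 4.35) also overlapped those of Tek (3.68 to 4.63) and Kdr (4.09 to 4.28), further up. The order depends on the gene lengths by which FPKM is divided. In mean CPM Flt1 (24.5) stood above Tie1 (22.6) and Tek (20.8), with overlapping ranges.

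Vegfa, the main blood vessel ligand (chromosome 17, 46327919 to 46343303, minus strand, GRCm39), was at 82.4, 72.0 and 90.2 CPM in saline mice on the normal diet. After CP it had 92.8, 77.8 and 138 at 1 day and 91.3, 120.4 and 100.4 at 3 days. Vitamin A mice had 90.6, 89.7 and 95.9 CPM after saline, 128, 193 and 156 at 1 day and 97.7, 78.2 and 94.7 at 3 days. The 1-day vitamin A mice lay above every saline and 3-day mouse of their diet. On the normal diet the 1-day range, widened by replicate 3, ran across both other groups. Vegfa rose on the vitamin A diet 1.72-fold at 1 day (log2 0.79, SE 0.19, adjusted p = 0.00578) and then fell (log2 -0.815, SE 0.19, adjusted p = 0.0197). On the normal diet the 1-day value was log2 0.34 (SE 0.19, adjusted p = 0.27). The fall on the vitamin A diet did not pass without 1-day replicate 2 (adjusted p = 0.0927) or 3 (0.0563), without 3-day replicate 2 (0.0563), or with only the libraries compared (0.171).

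At 1 day Vegfa was also higher on the vitamin A than on the normal diet, at log2 0.62 (SE 0.19, unadjusted p = 0.0035), which did not pass over all genes in edgeR (adjusted p = 0.153) and did in DESeq2 (log2 0.65, adjusted p = 0.0468). The authors' deposited table gives 0.62 with an adjusted p of 0.108, with the sign turned to vitamin A over normal. The ranges overlapped, since normal-diet replicate 3 (138 CPM) exceeded vitamin A replicate 1 (128 CPM). A difference between the diets in the response itself was not detected: the interaction of diet with CP at 1 day was log2 0.45 (SE 0.26, adjusted p = 0.734). That of diet with time after CP was log2 -0.83 (SE 0.26, unadjusted p = 0.00542, adjusted p = 0.346).

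Genes of the hypoxia response were measured beside Vegfa. The summed CPM of 10 such genes ran from 684 to 767 in saline mice, 879 to 1032 at 1 day and 739 to 827 at 3 days on the normal diet. In vitamin A mice it ran from 731 to 812, 1325 to 1827 and 790.2 to 1059. At 1 day 3 of the 10 rose and 1 fell on the normal diet. In vitamin A mice 5 of the 10 rose at 1 day and 6 fell from 1 to 3 days (0 with only the libraries compared). At 1 day 4 of the 10 were higher on the vitamin A than on the normal diet, with all 10 above 0 (median log2 0.70). Slc2a1, a glucose transporter, was among these 4 (log2 1.00, SE 0.15, adjusted p = 0.0137), and so was Pgk1, a glycolytic enzyme (log2 0.77, SE 0.13, adjusted p = 0.0147). Hif1a, the inducible subunit's gene, had 301 ± 13.4 CPM on the normal and 597 ± 174 on the vitamin A diet at 1 day (log2 0.99, SE 0.19, adjusted p = 0.0249). Hif1a, Slc2a1 and Pgk1 are named for this diet comparison after their values were seen. The 4 became 0 when replicate 1 of the normal or replicate 3 of the vitamin A diet at 1 day was left out, and with only the libraries compared. They became 2 when replicate 3 of the normal or replicate 2 of the vitamin A diet was left out. The Hif1a call was lost without normal-diet replicate 1 (adjusted p = 0.11), 2 (0.0708) or 3 (0.0947), vitamin A replicate 2 (0.0787) or 3 (0.104), and with only the libraries compared (0.183). Of 6 urothelial markers, 5 fell at 1 day on the vitamin A diet, with a summed CPM of 4441 to 6666 against 7204 to 7511 in saline mice. The 1 that rose was the keratin gene Krt5 (log2 2.05, SE 0.20, adjusted p = 1.52e-06), named after its values were seen. On the normal diet 2 of the 6 fell and Krt5 rose (0.98, SE 0.19, adjusted p = 0.00234), with summed CPM of 6063 to 7531 against 7797 to 8140. Of 6 fat cell (adipocyte) markers, 6 lay above 0 at 1 day for the vitamin A over the normal diet (median log2 2.14), with 0 past the threshold. In saline mice 5 of the 6 did (median 2.84), also with 0 past it. Their summed CPM at 1 day was 304 to 446 on the normal and 500 to 1454 on the vitamin A diet. The part of the hypoxia, urothelial and fat cell genes in the Vegfa result was not tested.

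Vegfc, the lymphatic ligand (chromosome 8, 54530567 to 54639489, plus strand, GRCm39), was at 6.404, 6.85 and 6.02 CPM in saline mice on the normal diet. Its values after CP were 3.28, 4.85 and 4.27 at 1 day and 6.93, 9.60 and 6.95 at 3 days. Its 3 normal-diet groups did not overlap, with 1 day lowest and 3 days highest. Vegfc in vitamin A mice was at 6.22, 4.15 and 6.03 CPM, then 5.97, 2.26 and 2.73, then 8.49, 8.15 and 3.53, and here the groups overlapped through 1-day replicate 1 and 3-day replicate 3. Neither step passed. The 1-day value was log2 -0.63 (SE 0.36, adjusted p = 0.28) on the normal and -0.58 (SE 0.36, adjusted p = 0.29) on the vitamin A diet. The value of 3 days over 1 day was 0.92 (SE 0.36, adjusted p = 0.287) and 0.87 (SE 0.36, adjusted p = 0.185). Without 1-day replicate 1 on the vitamin A diet both passed (log2 -1.13, adjusted p = 0.0339, and 1.42, adjusted p = 0.0254), and the second also passed without 3-day replicate 3 (1.18, adjusted p = 0.0464). The 6 fibroblast markers were also lowest at 1 day on both diets: summed CPM of 4736 to 5390, 1432 to 2009 and 5162 to 7976 on the normal diet, then 4928 to 5762, 1027 to 2168 and 3837 to 8144 on the vitamin A diet. At 1 day 5 of the 6 fell on the normal and 6 on the vitamin A diet, and from 1 to 3 days 3 and 5 rose (the latter 0 with only the libraries compared). Their part in the Vegfc values was not tested.

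Angpt1, the stabilising Tek ligand (chromosome 15, 42288063 to 42540373, minus strand, GRCm39), passed no test. Over all 18 libraries it lay between 3.20 and 8.23 CPM, and its group means ran from 5.36 ± 2.16 CPM at 1 day on the vitamin A diet to 7.17 ± 1.64 at 3 days on the normal diet (SD, n = 3). Angpt2, its context-dependent counterpart (chromosome 8, 18740279 to 18791578, minus strand, GRCm39), lay between 3.44 and 17.0 CPM. Its normal-diet libraries were 9.56, 15.7 and 8.56 CPM in saline mice, 11.8, 8.31 and 17.0 at 1 day and 7.96, 12.6 and 7.76 at 3 days, so that the mice of 1 group differed as much as the groups did. In vitamin A mice they were 8.22, 7.36 and 8.14, then 6.30, 8.52 and 12.6, then 10.2, 6.14 and 3.44 CPM. Across the 9 contrasts of 2 groups, Angpt1 spanned log2 -0.36 to 0.17 with SEs of 0.28 and Angpt2 -0.52 to 0.21 with SEs of 0.36 to 0.37, and neither went below an adjusted p of 0.415.

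Kdr, the main VEGF signalling receptor (chromosome 5, 76093487 to 76139885, minus strand, GRCm39), was at 33.3, 32.5 and 33.7 CPM in saline mice on the normal diet. CP mice on that diet had 32.1, 24.2 and 46.1 at 1 day and 39.0, 48.6 and 35.6 at 3 days. Kdr in vitamin A mice was at 30.7, 24.1 and 29.1 CPM, then 27.5, 18.9 and 26.0, then 49.5, 21.2 and 27.6. The normal-diet 3-day mice were all above saline (log2 0.31, SE 0.26, adjusted p = 0.522), and on the vitamin A diet replicate 1 of the 3-day group stood well above its group. Kdr was lower on the vitamin A diet by log2 -0.50 at 1 day (SE 0.26, adjusted p = 0.503; -0.50 with an adjusted p of 0.465 in the authors' deposited table), a value that did not pass.

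Flt1, the decoy-type VEGF receptor (chromosome 5, 147498414 to 147663419, minus strand, GRCm39), was at 29.6, 22.0 and 21.9 CPM in saline mice on the normal diet. In CP mice it reached 33.2, 26.2 and 47.1 at 1 day and 29.2, 36.4 and 27.9 at 3 days. In the same order, vitamin A mice had 22.0, 22.3 and 21.6 CPM, then 30.6, 40.4 and 43.9, then 33.0, 19.3 and 27.9. All 1-day vitamin A mice exceeded their saline mice, while on the normal diet saline replicate 1 lay above 1-day replicate 2. Flt1 rose 1.74-fold at 1 day on the vitamin A diet (log2 0.80, SE 0.22, adjusted p = 0.0138), a call lost without saline replicate 3 (adjusted p = 0.0507) or 1-day replicate 3 (0.0639). The normal-diet value was 0.53 (SE 0.22, unadjusted p = 0.0236, adjusted p = 0.121), and the 2 diets did not differ detectably (interaction log2 0.27, SE 0.31, adjusted p = 0.916).

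Flt4, the lymphatic VEGF receptor (chromosome 11, 49500506 to 49543566, plus strand, GRCm39), was at 5.67, 3.54 and 5.21 CPM in saline mice on the normal diet. CP mice on that diet had 5.59, 5.14 and 8.24 at 1 day and 9.85, 13.6 and 9.06 at 3 days. The vitamin A mice had 7.37, 4.83 and 7.27 CPM, then 6.91, 6.63 and 8.30, then 11.4, 4.78 and 5.35. The normal-diet 3-day mice lay above all other mice of their diet, whereas on the vitamin A diet replicate 1 alone was high at 3 days. Flt4 rose 2.25-fold at 3 days against saline on the normal diet (log2 1.17, SE 0.32, adjusted p = 0.0251). The call was lost without saline replicate 2 (adjusted p = 0.124) or 3 (0.0673) or 3-day replicate 1 (0.0562) or 2 (0.104). The same comparison on the vitamin A diet gave log2 0.14 (SE 0.32, adjusted p = 0.865), which turned to -0.03 without saline replicate 2 and to -0.36 without 3-day replicate 1. Whether the diets differ in this comparison was not tested. Of 7 lymphatic markers tested, 2 rose at 3 days against saline on each diet, Pdpn, a lymphatic and stromal membrane protein, and Stab1, a scavenger receptor also found on macrophages. The other 5 passed on neither diet in this comparison. Over the 7, 6 lay above 0 at 3 days on the normal diet (median log2 0.985) and 5 on the vitamin A diet (0.145). At 1 day 6 and 3 of the 7 lay above 0 (medians 0.272 and -0.168). Stab1 was at log2 1.30 (SE 0.25, adjusted p = 0.00231) on the normal diet and 1.07 (SE 0.25, adjusted p = 0.0133) on the vitamin A diet. Pdpn was at 1.46 (SE 0.17, adjusted p = 1.35e-05) and 0.78 (SE 0.17, adjusted p = 0.00642). The vitamin A calls were lost for Stab1 without saline replicate 1 (0.0554) or 2 (0.0883) or 3-day replicate 1 (0.063), for Pdpn without saline replicate 3 (0.0573), and for both with only the libraries compared (0.11 and 0.0758). Pdpn had already risen at 1 day (log2 1.09, SE 0.17, adjusted p = 0.000307, and 0.83, SE 0.17, adjusted p = 0.00167). Reln, a secreted protein of lymphatics, fell at 1 day on the vitamin A diet (-1.63, SE 0.50, adjusted p = 0.0276). Stab1 rose from 1 to 3 days on the normal diet (1.02, SE 0.25, adjusted p = 0.0453). The Reln call was lost without saline replicate 1 or 3 or 1-day replicate 2 or 3 and with only the libraries compared (0.052 to 0.108). The Stab1 step was lost without each of the 6 libraries and with no filter on low counts (0.0742 to 0.234).

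Tie1, the receptor that modulates Tek (chromosome 4, 118328388 to 118347046, minus strand, GRCm39), was at 25.3, 22.1 and 20.5 CPM in saline mice on the normal diet. After CP it had 22.6, 27.7 and 30.3 at 1 day and 59.0, 60.5 and 40.9 at 3 days. Tie1 in vitamin A mice was at 24.6, 20.9 and 20.2 CPM, then 30.9, 18.7 and 26.1, then 54.5, 42.6 and 35.2. On each diet every 3-day mouse lay above every saline and 1-day mouse, and saline and 1 day overlapped. Against saline, Tie1 rose 2.37-fold at 3 days on the normal diet (log2 1.24, SE 0.20, adjusted p = 0.000493) and 2.01-fold on the vitamin A diet (log2 1.01, SE 0.20, adjusted p = 0.00397), and both calls held without any 1 library. From 1 to 3 days it rose by log2 0.99 (SE 0.20, adjusted p = 0.0152) and 0.81 (SE 0.20, adjusted p = 0.0294), with an interaction of -0.19 (SE 0.28, adjusted p = 0.906).

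The steps of Tie1 from 1 to 3 days were less firm than those against saline. The normal-diet call was lost without 1-day replicate 1 (adjusted p = 0.121) or 3-day replicate 1 (0.0602) or 2 (0.0931). The vitamin A call was lost without 1-day replicate 2 (adjusted p = 0.119) or 3 (0.0873) or 3-day replicate 1 (0.107), and with only the libraries compared (0.302). Tie1 lost no call in either comparison without 3-day vitamin A replicate 2, the library that stood apart.

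Tek, the angiopoietin receptor (chromosome 4, 94627322 to 94763213, plus strand, GRCm39), was at 22.9, 21.2 and 18.2 CPM in saline mice on the normal diet. CP mice on that diet had 15.7, 18.5 and 17.0 at 1 day and 35.6, 33.8 and 27.1 at 3 days. In vitamin A mice it was at 17.7, 20.8 and 14.7 CPM, then 19.5, 14.2 and 19.1, then 26.5, 15.4 and 18.2. The 3-day mice on the normal diet stood above every other mouse of the study, while the vitamin A groups overlapped throughout. On the normal diet Tek rose 1.89-fold from 1 to 3 days (log2 0.92, SE 0.20, adjusted p = 0.0233) and 1.55-fold against saline (log2 0.63, SE 0.20, adjusted p = 0.0487). The vitamin A values were 0.18 (SE 0.20, adjusted p = 0.667) and 0.17 (SE 0.20, adjusted p = 0.695), and turned to -0.07 and -0.08 without 3-day replicate 1.

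Both Tek calls depended on single mice. The step from 1 to 3 days was lost without 1-day replicate 1 (adjusted p = 0.153) or 3 (0.107) or 3-day replicate 1 (0.0908) or 2 (0.107). The difference from saline was lost without saline replicate 1 (0.0797), 2 (0.123) or 3 (0.193), without 3-day replicate 1 (0.194) or 2 (0.124), and with DESeq2 size factors in edgeR (0.0543). Tek was the member with the largest diet difference at 3 days, log2 -0.68 on the vitamin A diet (SE 0.20, unadjusted p = 0.00267), with no overlap between diets (3.78% of all genes lay wholly lower in this way). That difference did not pass over all genes (adjusted p = 0.994; -0.68 with an adjusted p of 0.999 in the authors' deposited table), and neither did the interaction of diet with time (log2 -0.73, SE 0.28, adjusted p = 0.447).

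Eng, the endoglin co-receptor (chromosome 2, 32536607 to 32572681, plus strand, GRCm39), was at 50.0, 44.7 and 49.0 CPM in saline mice on the normal diet. Its values after CP were 79.3, 84.0 and 104 at 1 day and 120.5, 122 and 94.4 at 3 days. Eng in vitamin A mice was at 58.0, 46.4 and 45.4 CPM, then 94.2, 99.2 and 96.5, then 99.3, 93.0 and 95.4. No mouse given CP overlapped any saline mouse, and the 6 vitamin A mice given CP lay within 93.0 and 99.3 CPM. At 1 day Eng rose 1.86-fold on the normal diet (log2 0.89, SE 0.13, adjusted p = 0.000215) and 1.94-fold on the vitamin A diet (log2 0.95, SE 0.13, adjusted p = 5.06e-05). At 3 days it stood 2.35-fold (log2 1.23, SE 0.13, adjusted p = 6.63e-06) and 1.92-fold (log2 0.94, SE 0.13, adjusted p = 0.000139) above saline. All 4 calls held without any 1 library. From 1 to 3 days the normal-diet value was log2 0.34 (SE 0.13, adjusted p = 0.287), and the interaction of diet with time was -0.35 (SE 0.18, adjusted p = 0.614).

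The vitamin A diet changed 0 of the 10 members past the threshold of edgeR in saline mice (0.0104% of all genes passed), 0 at 1 day (0.466%) and 0 at 3 days (0.00518%), with 0, 1 (Vegfa) and 1 (Tek) members at an unadjusted p under 0.05, beside 3.78%, 11.1% and 3.76% of all genes. DESeq2 called 0, 1 (Vegfa) and 0. At 3 days the fitted values of all 10 members were below 0 for the vitamin A diet, from log2 -0.20 for Vegfa to -0.68 for Tek. Their median was -0.27 beside 0.00 over all genes tested. Several members vary together, so these are not 10 separate observations. Within the vitamin A group replicate 2, the library that stood apart, was lowest for Vegfa, Kdr, Flt1, Flt4, Tek and Eng. Replicate 3 was lowest for Vegfc, Angpt1, Angpt2 and Tie1. The sign of Vegfc, at -0.22, turned to 0.09 without vitamin A replicate 3. A list of 18 pan-endothelial genes had a median of -0.35 in the same comparison, with 17 of 18 below 0. None of them passed in edgeR (3 at an unadjusted p under 0.05) or in DESeq2. In saline mice the members spanned log2 -0.51 for Angpt2 to 0.43 for Flt4, and 2 of them, Kdr and Angpt2, lay wholly lower on the vitamin A diet (7.59% of all genes did). The authors' deposited table gives -0.51 for Angpt2 with an adjusted p of 0.477. Both interactions had 0 members and 0% of all genes past the threshold in edgeR. They had 0 and 2 (Vegfa and Tek) members at an unadjusted p under 0.05, beside 7.79% and 8.96% of all genes, and 0 and 0 members called by DESeq2.

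Genes of endothelium in general also moved with time. Of the 18 pan-endothelial genes, all tested, 12 rose at 3 days against saline on the normal diet and 5 on the vitamin A diet, with medians of log2 0.86 and 0.53. Plvap, a protein of endothelial diaphragms, rose at 3 days by log2 1.502 (SE 0.18, adjusted p = 2.18e-05) on the normal and 1.17 (SE 0.18, adjusted p = 0.000335) on the vitamin A diet. Mmrn2, an endothelial matrix protein, rose by 1.36 (SE 0.26, adjusted p = 0.00198) and 1.15 (SE 0.26, adjusted p = 0.00999), the latter lost without saline replicate 2 (0.0667) or 3 (0.0504) and with only the libraries compared (0.0646). On the normal diet Cdh5, the endothelial cadherin, rose too (1.07, SE 0.22, adjusted p = 0.00407), as did Sox18, an endothelial transcription factor (1.14, SE 0.31, adjusted p = 0.0247). The Sox18 call was lost without saline replicate 1 (0.0952), 2 (0.0814) or 3 (0.0633) or 3-day replicate 1 (0.145). Egfl7, a secreted endothelial protein, rose on the normal (1.01, SE 0.23, adjusted p = 0.00911; 0.0556 without saline replicate 1) and the vitamin A diet (0.92, SE 0.23, adjusted p = 0.0225). Emcn, an endothelial sialomucin, also rose on both (1.06, SE 0.24, adjusted p = 0.00748, and 0.85, SE 0.24, adjusted p = 0.0407). On vitamin A both were lost without saline replicate 2 or 3 or 3-day replicate 2 and with only the libraries compared (0.0729 to 0.122 for Egfl7, 0.123 to 0.206 for Emcn), and Emcn also with a replicate block (0.0571). Markers of other cells moved in the same comparison. The summed CPM of the 6 smooth muscle genes ran from 19052 to 24340 after saline and 7060 to 13955 at 3 days on the normal diet, with all 6 below 0 and 1 past the threshold, the myosin gene Myh11 (log2 -1.24, SE 0.32, adjusted p = 0.0184; named after its value was seen). That count became 0 without saline replicate 2 or 3-day replicate 1 or 3, 3 in DESeq2 and 6 with only the libraries compared. Vitamin A mice had 16328 to 24925 and 10073 to 19908, with all 6 below 0 and 0 past the threshold in edgeR (1 at an unadjusted p under 0.05, against 6 on the normal diet, and 1 in DESeq2). All 5 red blood cell genes fell at 3 days on both diets, from summed CPM of 75.1 to 146 to 0.916 to 1.38 on the normal diet and of 94.9 to 258 to 0.50 to 0.837 on the vitamin A diet. Their part in the endothelial values was not tested.

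The 12 pan-endothelial calls at 3 days on the normal diet became 7 without saline replicate 1 or 2 or 3-day replicate 1, and 6 without saline replicate 3. The 5 on the vitamin A diet became 1 without its saline replicate 2 or 3, or with only the libraries compared. Their summed CPM ran from 544 to 606 in saline mice, 526 to 729 at 1 day and 809 to 924 at 3 days on the normal diet, then from 466 to 631, 534 to 565 and 626 to 796 on the vitamin A diet. At 1 day the list was mixed: 3 rose and 1 fell on the normal diet, and 4 rose and 2 fell on the vitamin A diet. Plvap rose at 1 day on both (log2 1.27, SE 0.18, adjusted p = 0.000149, and 0.99, SE 0.18, adjusted p = 0.000697), and Cd34, a sialomucin of endothelium and stroma, fell on both (-0.73, SE 0.21, adjusted p = 0.0311, and -0.91, SE 0.21, adjusted p = 0.005). Ecscr, an endothelial membrane protein, rose on both (0.79, adjusted p = 0.0255, and 0.74, adjusted p = 0.024). The other named calls at 1 day were Emcn (0.83, adjusted p = 0.0305) on the normal diet and, on the vitamin A diet, Egfl7 (0.92, adjusted p = 0.00932) and the junction gene Cldn5 (-0.97, adjusted p = 0.0105). Except for Plvap, and for Cd34 on the vitamin A diet, these calls were lost without single libraries. That held for Emcn without saline replicate 1 or 3 or 1-day replicate 3 (0.107 to 0.192), and for Ecscr on the normal diet without saline replicate 1, 2 or 3 or 1-day replicate 2 or 3 (0.0566 to 0.149). Ecscr on the vitamin A diet was lost without saline replicate 2 or 3 or 1-day replicate 1 or 3 (0.0516 to 0.132). Cd34 on the normal diet was lost without saline replicate 1, 2 or 3 or 1-day replicate 1 or 3 (0.0519 to 0.13). Egfl7 was lost without saline replicate 2 or 1-day replicate 2 (0.0525 to 0.0549), and Cldn5 without saline replicate 1 or 1-day replicate 2 or 3 (0.0506 to 0.0587). The 4 normal-diet calls became 1 without saline replicate 1 or 3 or 1-day replicate 3, 2 without saline replicate 2, and 7 with only the libraries compared. On the vitamin A diet the 6 became 3 without saline replicate 2 or 1-day replicate 2 or 3. Between 1 and 3 days 0 passed on the normal diet in edgeR at an adjusted p under 0.05 (12 at an unadjusted p under 0.05, 4 in DESeq2, 5 with only the libraries compared, 2 with no filter, 1 without 1-day replicate 3 or with a replicate block). On the vitamin A diet 1 passed, Vwf, the von Willebrand factor (1.32, SE 0.32, adjusted p = 0.0257). It was lost without 1-day replicate 2 (0.101) or 3 (0.0994) or 3-day replicate 1 (0.12), with no filter (0.0959) and with only the libraries compared (0.265). The count was 2 without 1-day replicate 1 and in DESeq2 and 3 without 3-day replicate 3.

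The members were also set against this sum, of which Cd34 made up the most (194 ± 17.9 CPM after saline and 117 ± 22.7 at 1 day on the normal diet, 169.8 ± 18.01 and 90.3 ± 24.5 on the vitamin A diet). Eng had a median of 8.26 CPM per 100 CPM of summed pan-endothelial genes after saline on the normal diet, 14.25 at 1 day (14.2 to 15.1) and 13.1 at 3 days (11.7 to 13.2). The vitamin A medians were 9.19, 17.5 and 13.4. The highest saline value was 9.73 and the lowest value after CP 11.7, so the ranges did not overlap. With Cd34 left out of the sum, a choice made after seeing the data, they were 14.3 and 15.1. Tie1 had medians of 3.96, 4.30 and 6.41 on the normal and 3.92, 4.71 and 6.15 on the vitamin A diet. On each diet its lowest 3-day value (5.05 and 5.62) was above its highest saline value (4.17 and 4.33), as it was without Cd34 (6.54 against 6.31 and 6.58 against 6.36). Tek had medians of 3.78, 2.97 and 3.66 on the normal diet, so that its 3-day range (3.35 to 3.87) overlapped its saline range (3.35 to 3.80). Without Cd34 it did not: the 3-day values (4.33 to 4.80) lay below the saline ones (4.92 to 5.98). Flt4 had medians of 0.935, 1.06 and 1.12 on the normal diet, and its 3-day values (1.07 to 1.47) lay above the saline ones (0.635 to 0.957). Without Cd34 these overlapped (1.33 to 1.83 against 1.001 to 1.42), and on the vitamin A diet they overlapped with it (0.69 to 1.43 against 0.904 to 1.56). Flt1 ran the other way at 3 days on the normal diet, at 3.17 to 3.94 below the saline values of 3.95 to 4.89, with 4.44 to 6.46 at 1 day. Its vitamin A values were 3.48 to 4.64 after saline, 5.42 to 7.94 at 1 day and 2.79 to 4.45 at 3 days. Kdr (5.502 to 6.20 and 4.24 to 5.26) and Angpt1 (1.18 to 1.26 and 0.653 to 0.89) were also lower per endothelial sum at 3 days than after saline on the normal diet. So was Angpt2 (1.57 to 2.81 and 0.864 to 1.37), and so was Vegfc (1.06 to 1.23 and 0.752 to 1.04). Vegfa overlapped (12.9 to 16.6 and 9.91 to 13.03). The sum itself ran from 544 to 606 CPM after saline and 809 to 924 at 3 days on this diet. A gene with an unchanged CPM therefore also falls against it. In CPM, every 3-day mouse lay above every saline mouse for Kdr and for Vegfc. How many of all genes fall in this way was not counted. For Kdr, Angpt1, Angpt2 and Vegfc, values on the vitamin A diet and without Cd34 are not given here. These ratios are descriptions, and the share of endothelial cells in each bladder was not measured.

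**Figure D3:**
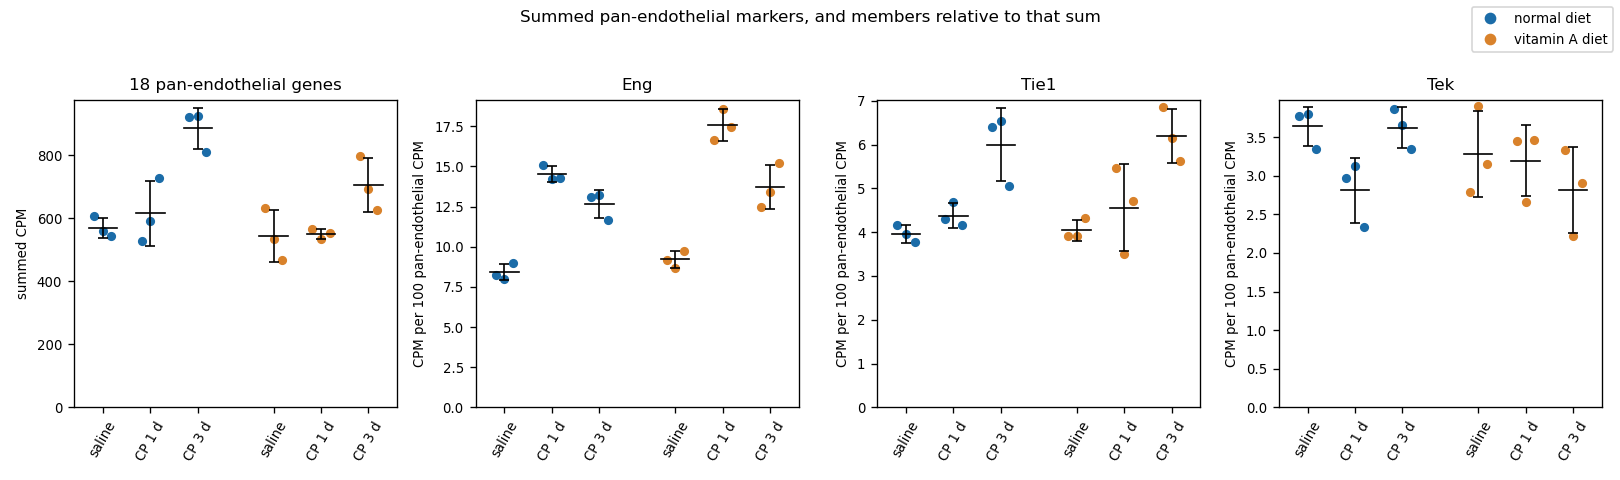
Summed CPM of 18 pan-endothelial genes in each library (left panel), and Eng, Tie1 and Tek as CPM per 100 CPM of that sum, by group, with the mean and SD over 3 mice on linear axes from 0. Eng relative to the sum is higher in all CP groups than in saline on both diets, and Tek relative to the sum overlaps between saline and 3 days, which it did not on the normal diet with Cd34 left out of the sum.

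Ratios of partner genes were taken from FPKM within each library. Their level depends on the gene lengths by which FPKM is divided, so only their differences between groups are described. The ratio of Flt1 to Kdr had a median of 0.38 after saline on the normal diet, then 0.58 and 0.42 at 1 and 3 days after CP. The medians were 0.42, 0.95 and 0.51 on the vitamin A diet. At 1 day every mouse of either diet (0.575 to 1.201) lay above every saline mouse of both diets (0.366 to 0.52). The ratio of Tie1 to Tek had medians of 1.398, 1.90 and 2.10 on the normal diet, without overlap between saline (1.32 to 1.43) and CP mice (1.83 to 2.27). Its vitamin A medians were 1.74, 1.73 and 2.61, and there 3 days stood apart. The ratio of Angpt2 to Angpt1 overlapped between all groups of the normal diet (1.26 to 3.48), while on the vitamin A diet the 1-day mice (2.02 to 2.51) lay above the saline mice (1.34 to 1.58) and the 3-day mice (0.91 to 1.82). No test was run on these ratios.

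**Figure D4:**
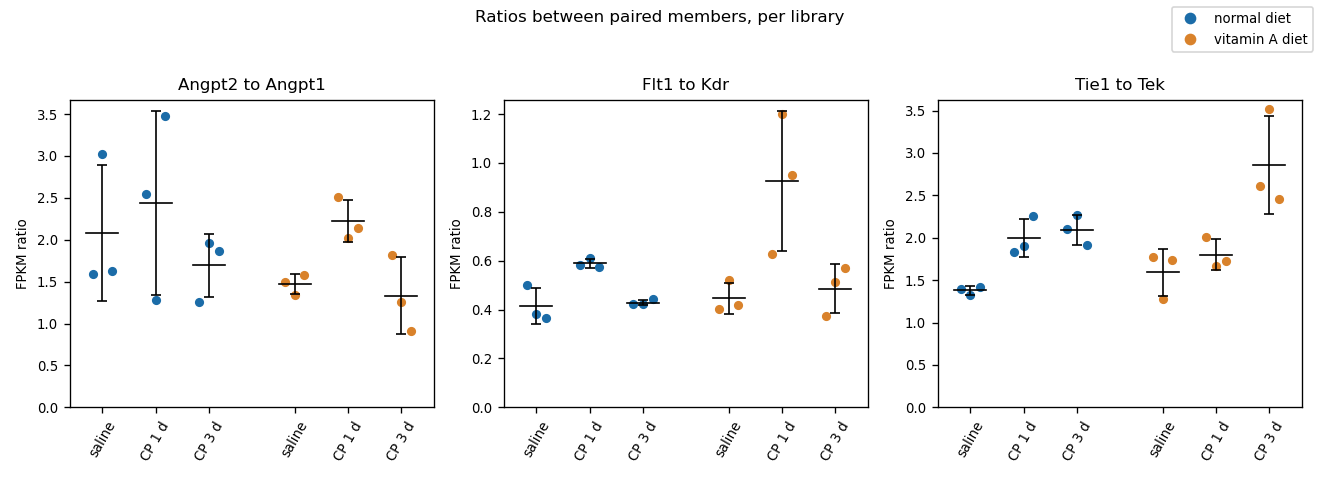
Ratio of Angpt2 to Angpt1, Flt1 to Kdr and Tie1 to Tek in FPKM for each library by group, with the mean and SD over 3 mice on linear axes from 0. The Flt1 to Kdr ratio peaks at 1 day on both diets, and the Tie1 to Tek ratio is highest at 3 days on the vitamin A diet, at 2.45 to 3.51.

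Other genes of these pathways were read from a list of 37 ligands, co-receptors, regulators and targets, of which 35 were tested and Ccbe1 and Gdf2 were too low. At 1 day 4 rose and 2 fell on the normal diet, and 5 rose and 4 fell on the vitamin A diet, with list medians of log2 -0.08 and 0.03. Angptl4, an angiopoietin-like inhibitor of lipoprotein lipase, rose on both (log2 2.09, SE 0.40, adjusted p = 0.00207, and 2.73, SE 0.40, adjusted p = 9.48e-05), and so did Hif1a (0.96, SE 0.19, adjusted p = 0.00245, and 1.86, SE 0.19, adjusted p = 3.03e-06). Svep1, a matrix protein that binds Tie1, fell on both (-1.85, SE 0.37, adjusted p = 0.00308, and -1.33, SE 0.37, adjusted p = 0.0154). The latter was lost without saline replicate 2 (0.0526) or 1-day replicate 2 (0.0686) and with no filter (0.0748). Nos3, the endothelial nitric oxide synthase, rose on both (1.003, SE 0.27, adjusted p = 0.0222, and 1.56, SE 0.27, adjusted p = 0.000478). Sema3e, a semaphorin ligand of Plxnd1, fell on the normal diet (-1.19, SE 0.38, adjusted p = 0.0497). The normal-diet Nos3 call was lost without saline replicate 1, 2 or 3 or 1-day replicate 3 (0.0555 to 0.161). The Sema3e call was lost without saline replicate 1, 2 or 3 or 1-day replicate 1 or 3 (0.0781 to 0.21). Bmp10, an endoglin and Acvrl1 ligand, fell at 1 day on the vitamin A diet (-3.45, SE 1.13, adjusted p = 0.0387) from means of 2.00 to 0.176 CPM. Angpt4, a further Tek ligand, fell too (-1.70, SE 0.57, adjusted p = 0.0438). Bmp10 was lost without saline replicate 1, 2 or 3 or 1-day replicate 2 or 3 (0.0718 to 0.118). Angpt4 was lost without saline replicate 2 or 3 or 1-day replicate 1, 2 or 3, with no filter, with a replicate block and with only the libraries compared (0.0613 to 0.138). The 6 calls on the normal diet became 3 without saline replicate 1, 2 or 3 or 1-day replicate 3, and 11 with only the libraries compared.

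Between 1 and 3 days 5 genes of the list rose and 0 fell on the normal diet, and 3 rose and 2 fell on the vitamin A diet. Svep1 rose by log2 2.25 (SE 0.38, adjusted p = 0.00393) on the normal diet, a call lost without 1-day replicate 1 (0.0511). It rose by 1.54 (SE 0.37, adjusted p = 0.0241) on the vitamin A diet, lost without 1-day replicate 2 (0.0843) or 3-day replicate 1 (0.11) or 2 (0.0804), with no filter (0.105) and with only the libraries compared (0.264). Angpt4 rose by 2.31 (SE 0.56, adjusted p = 0.045), lost without 1-day replicate 1, 2 or 3 or 3-day replicate 1 or 3, with no filter, with a replicate block and with only the libraries compared (0.061 to 0.217). Its vitamin A rise of 2.93 (SE 0.58, adjusted p = 0.00759) was lost with only the libraries compared (0.101). In normal-diet mice Plxnd1, a semaphorin receptor of endothelium, rose (1.10, SE 0.20, adjusted p = 0.00589; 0.0511 without 1-day replicate 1). Nrp1, the VEGF co-receptor neuropilin, rose too (0.97, SE 0.19, adjusted p = 0.0121; 0.0984 without 1-day replicate 1 and 0.0762 without 3-day replicate 2). The vitamin A diet had Adamts3, the protease that activates Vegfc, higher (1.44, SE 0.35, adjusted p = 0.0253) and Sema3a, a semaphorin ligand of Nrp1, lower (-1.11, SE 0.27, adjusted p = 0.0266). Adamts3 was lost without 1-day replicate 2 or 3 or 3-day replicate 1 and with only the libraries compared (0.0639 to 0.251). Sema3a was lost without 1-day replicate 3 or 3-day replicate 2 or 3, with no filter and with only the libraries compared (0.0557 to 0.289). The 5 calls on the normal diet became 0 without 1-day replicate 1 and 3 without 1-day replicate 3 or 3-day replicate 2 or 3. The 5 on the vitamin A diet became 3 without 1-day replicate 3 or with no filter, 0 with only the libraries compared and 9 in DESeq2.

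At 3 days against saline 10 of the 35 rose and 0 fell on the normal diet, and 4 rose and 0 fell on the vitamin A diet. The normal-diet rises included Angptl4 (log2 1.81, SE 0.40, adjusted p = 0.0061), Nos3 (1.23, SE 0.27, adjusted p = 0.00658), Plxnd1 (0.89, SE 0.19, adjusted p = 0.00613). Vash1, the VEGF-induced inhibitor vasohibin, rose as well (0.82, SE 0.20, adjusted p = 0.0146), a call lost without saline replicate 2 or 3 or 3-day replicate 2 or 3 (0.0564 to 0.0831). The vitamin A rises were Adamts3 (1.502, SE 0.35, adjusted p = 0.012; 0.0788 without saline replicate 3), Angptl4 (1.37, SE 0.39, adjusted p = 0.0425), Hif1a (0.92, SE 0.19, adjusted p = 0.00475) and Thbs1, an angiogenesis inhibitor of the matrix (0.74, SE 0.19, adjusted p = 0.0261). Angptl4 was lost there without saline replicate 1 or 2 or 3-day replicate 1 or 3, with no filter and with only the libraries compared (0.106 to 0.198). Thbs1 was lost without saline replicate 1 or 2 or 3-day replicate 3 and with only the libraries compared (0.0966 to 0.154). Hif1a and Thbs1 were among the 10 normal-diet rises too (0.70, SE 0.19, adjusted p = 0.0212, and 0.79, SE 0.19, adjusted p = 0.0132). Hif1a was lost there without saline replicate 2 (0.0706) or 3 (0.0958) or 3-day replicate 1 (0.118), and Thbs1 without saline replicate 2 (0.0672) or 3-day replicate 1 (0.0671). The 10 became 6 without saline replicate 1, 4 without saline replicate 2, 5 without saline replicate 3, 4 without 3-day replicate 1 and 6 without 3-day replicate 3. They were 16 in DESeq2 or with only the libraries compared. The 4 became 2 without saline replicate 1 or 2 and with only the libraries compared.

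Of 10 tip cell genes, which mark sprouting endothelium and 2 of which, Plvap and Robo4, also stand in the pan-endothelial list, 2 rose and 1 fell at 1 day on the normal diet and 2 rose on the vitamin A diet. Apln, a peptide ligand of sprouting vessels, rose on both (log2 1.96, SE 0.42, adjusted p = 0.005, and 2.08, SE 0.42, adjusted p = 0.00165), with means of 3.03 and 3.59 CPM in saline mice and 11.8 and 15.2 at 1 day. Lama4, a laminin chain of vessel walls, fell on the normal diet (-0.94, SE 0.28, adjusted p = 0.0356), a call lost without each of the 6 libraries, with no filter and with a replicate block (0.0526 to 0.132). At 3 days against saline 3 rose on the normal diet, with Robo4, a guidance receptor of endothelium, at 0.98 (SE 0.15, adjusted p = 0.00032). Nid2, a basement membrane protein, was at 1.06 (SE 0.28, adjusted p = 0.0219), a call lost without saline replicate 1, 2 or 3 or 3-day replicate 2 (0.0599 to 0.0898). Robo4 and Plvap rose on the vitamin A diet. Robo4 rose by 0.596 (SE 0.15, adjusted p = 0.0238), lost without saline replicate 2 (0.152) or 3 (0.146) or 3-day replicate 3 (0.0503), with no filter (0.0624) and with only the libraries compared (0.18). Over all 10 genes, 7 lay above 0 at 3 days on the normal diet (median log2 0.34) and 5 on the vitamin A diet (-0.09). The 5 below 0 on the vitamin A diet included Esm1 (-1.07), Cxcr4 (-0.70) and Dll4 (-0.47), named after their values were seen and not past the threshold. At 1 day 4 and 5 of the 10 lay above 0 (medians -0.02 and -0.10).

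Of 9 genes listed as markers of mural cells (pericytes and vascular smooth muscle), 2 fell at 1 day on the normal diet, and 1 rose and 1 fell on the vitamin A diet. The RNA is of whole bladder, so the cells in which these genes changed are not known. Rgs5, a pericyte marker, fell on both (log2 -1.92, SE 0.25, adjusted p = 5.94e-05, and -2.29, SE 0.25, adjusted p = 4.88e-06). It was still lower at 3 days than in saline (-1.14, SE 0.24, adjusted p = 0.00465, and -1.04, SE 0.24, adjusted p = 0.0121; the latter 0.0525 without 3-day replicate 2). Its rise from 1 to 3 days passed on the vitamin A diet at 1.25 (SE 0.24, adjusted p = 0.00674; 0.166 with only the libraries compared). Pdgfrb, the PDGF receptor of pericytes and fibroblasts, fell at 1 day on the normal diet (-0.89, SE 0.23, adjusted p = 0.0167), lost without saline replicate 1 (0.0575) or 1-day replicate 1 (0.0825) or 2 (0.0712). Kcnj8, a potassium channel gene of this list, rose at 1 day on the vitamin A diet (1.08, SE 0.28, adjusted p = 0.00963), lost without saline replicate 2 (0.053) or 1-day replicate 3 (0.0533). The summed CPM of the 9 ran from 1092 to 1142 in saline mice and 599 to 693 at 1 day on the normal diet, and from 945 to 1001 and 456 to 742 on the vitamin A diet. Rgs5 made up much of it, with means of 599 and 158 CPM on the normal and 519.6 and 107 on the vitamin A diet. Without Rgs5, a choice also made after seeing the data, the sums overlapped on the vitamin A diet (419 to 519 and 366 to 643) and did not on the normal diet (514 to 534 and 420.2 to 509.7). At 1 day 3 of the 9 lay above 0 on the normal diet (median log2 -0.14) and 6 on the vitamin A diet (0.07). Angpt1, a ligand made largely by mural and stromal cells, passed no test beside this.

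As a description over the 18 libraries, which share the time course, Tie1 followed Tek (Pearson r = 0.74) and Eng (0.71), and Vegfa followed Flt1 (0.79) and ran against Vegfc (-0.55). With the endothelial gene Pecam1, Tek had r = 0.83 and Tie1 0.82, against 0.14 for Vegfa and 0.20 for Angpt2. Among tested genes whose mean log2 CPM reached 1, those most like Eng were Plvap (0.97), Cdkn1a (0.96) and Krt4 (0.96). Those most like Tie1 were Stard8 (0.96), F13a1 (0.96) and Stab1 (0.94), and those most like Tek were Gask1b (0.89), Plxnd1 (0.86) and Pxdn (0.85). Vegfc was most like Col6a1 (0.91), Lrrc17 (0.91) and Col6a2 (0.90), and Vegfa like Ppp1r9b (0.85), Trim8 (0.85) and Ptgs1 (0.84). For Flt1 they were Tigar (0.87), Slc7a11 (0.86) and Hyal1 (0.85). For Flt4 they included Arhgap17 (0.87) and Lrrc8c (0.84), and for Kdr they were Siae (0.84), Cyyr1 (0.82) and Plscr2 (0.82). Lower values were reached for Angpt1, with Bche (0.75), 4933421O10Rik (0.71) and Rab18 (0.70), and for Angpt2, with LOC118568781 (0.77), Gm4473 (0.75) and Carns1 (0.72). F13a1 and Stab1 are also genes of macrophages. Of 6 macrophage markers, 4 rose at 3 days against saline on the normal and 3 on the vitamin A diet, the latter 1 without saline replicate 1 or 2 or with only the libraries compared. They had summed CPM of 372 to 425, 419 to 455 and 648 to 961 on the normal diet and 383 to 657, 251 to 380 and 549 to 889 on the vitamin A diet. The part of macrophages in the Tie1 values was not tested.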

How the data were processed

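Whole-bladder RNA of 18 mice was analysed in 6 groups of 3, taken from the sample titles, where replicates are separate mice. Raw counts and FPKM values come from 2 deposited tables of the same genes. The authors' deposited tables of the 3 diet comparisons hold log2 ratios and p-values (unadjusted p under 0.05 only, from the values listed). Per the submitters' processing notes HISAT2 2.0.5, featureCounts 1.5.0-p3, DESeq2 1.20.0 and GRCm39 were used; their roles, strandedness and the handling of multiply aligned reads have no statement in the labels.

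The test on these counts was that of edgeR 4.0.16 in R 4.3.3 (robust quasi-likelihood, TMM, filterByExpr, 1 mean per group over 18 libraries, 12 residual degrees of freedom, 2-sided). There were 11 contrasts, each adjusted by Benjamini-Hochberg over 19323 genes. Features without a name (0.474% to 0.81% of counts) were left out. The code was tested on simulated data. Exact permutation of 3 against 3 cannot go below 0.1. Alternatives were DESeq2 1.42.0, DESeq2 size factors in edgeR, no filter, a replicate block, only the libraries compared, and each library left out.

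Members and lists were chosen with earlier results of these data known. All members are named in every comparison, as are up to 4 genes past the threshold with the largest change from the other pathway, tip cell, pan-endothelial, lymphatic and mural lists in each contrast of CP or time, and the 3 genes most like each member (Pearson r of log2 CPM, prior count 2, among genes whose mean log2 CPM reaches 1). Of the latter, 1 gene is not reported here.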

Additional observations from a re-analysis of the deposited data

How the results depend on the processing

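The calls of Eng, and of Tie1 at 3 days against saline, held under every alternative run. Counts of members past the threshold when 1 library was left out ran from 0 to 2 (3 days over 1 day, normal diet), 0 to 3 (the same, vitamin A) and 2 to 4 (3 days against saline, normal diet). With only the libraries compared, the vitamin A count from 1 to 3 days was 0, and DESeq2 called 1 member for diet at 1 day. Counts of 43 to 327 per library limit Vegfc, as do those of 68 to 280 for Angpt1, 73 to 464 for Flt4 and 110 to 431 for Angpt2.

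Of 110 member and contrast pairs, 38 changed sign under an alternative, none past the threshold in the main analysis, with a largest log2 of 0.27, so no direction is claimed for them. Ranges of log2 with 1 library left out were as follows. At 1 day against saline, normal diet, Kdr had -0.24 to 0.24, Angpt1 -0.20 to 0.0513 and Angpt2 -0.17 to 0.45. At 1 day against saline, vitamin A, Flt4 had -0.0107 to 0.26, Angpt2 -0.0962 to 0.42 and Tek -0.14 to 0.12. From 1 to 3 days, normal diet, Vegfa had -0.15 to 0.29, Flt1 -0.37 to 0.0691 and Angpt1 -0.0266 to 0.26. From 1 to 3 days, vitamin A, Flt4 had -0.52 to 0.19, Angpt1 -0.0938 to 0.49, Tek -0.071 to 0.34 and Eng -0.0368 to 0.0086. At 3 days against saline, normal diet, Angpt1 had -0.0669 to 0.22 and Angpt2 -0.52 to 0.0638. At 3 days against saline, vitamin A, Vegfa had -0.0926 to 0.0582, Kdr -0.20 to 0.45, Flt4 -0.36 to 0.36, Angpt2 -0.73 to 0.0463 and Tek -0.0817 to 0.33. For diet in saline mice, Angpt1 had -0.0624 to 0.044, Tie1 -0.14 to 0.0438 and Eng -0.0614 to 0.14. For diet at 1 day, Vegfc had -0.73 to 0.0731, Flt1 -0.0719 to 0.36, Tie1 -0.27 to 0.0802 and Tek -0.0353 to 0.18. For diet at 3 days, Vegfc had -0.43 to 0.0853. For the interaction of diet with CP at 1 day, Vegfc had -0.50 to 0.30, Kdr -0.45 to 0.0223, Flt4 -0.41 to 0.0052, Angpt2 -0.24 to 0.37, Tie1 -0.23 to 0.12 and Eng -0.0257 to 0.18. For that of diet with time, Vegfc had -0.30 to 0.50, Kdr -0.25 to 0.41, Angpt1 -0.18 to 0.41 and Angpt2 -0.55 to 0.22. Tek at 1 day on the vitamin A diet also turned to 0.003 with DESeq2 size factors, 0.0031 in DESeq2 and 0.0125 with only the libraries compared. The cause was not tested.

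Replicate numbers showed no consistent pairing of the mice: residuals of same-numbered libraries correlated at -0.589 to 0.659, and 5 of 18 libraries correlated best with their own number. Residuals from means of 3 mice are not independent, so this check cannot decide whether some mice shared a batch. With a replicate block the counts of members called were 1, 3, 2, 2, 4 and 2 in the 6 comparisons of CP or time, as without it, and the Vegfc interaction of diet with CP was -9e-04.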
